A study of Mus musculus with 2 samples.

Results

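The complement, coagulation and fibrinolysis genes were read in uterine stromal cells that lacked the homeobox factors Msx1 and Msx2, and in cells of floxed controls. They were 43 listed genes, 20 of complement and 23 of clotting and clot removal, found as probe sets annotated to 1 gene symbol. Such probe sets were found for 39 of the 43 genes, 17 of complement and 22 of clotting, among 18193 genes on the array. The members without such a probe set, C4b, Cfd, C7 and F2rl1, were not analysed here. The rule went by gene symbols and used no measured value, but the members were chosen with earlier results of these data known.

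The Msx1Msx2-null cells came from C57BL/6 mice carrying floxed Msx1 and Msx2 alleles and PRcre, which places Cre recombinase under the progesterone receptor gene and so deletes in the cells of the uterus that express it. The control cells came from C57BL/6 mice described as floxed controls, and the labels do not say whether these carried PRcre. All females were mated to fertile males and sampled on day 4 of pregnancy, the vaginal plug marking the first day. Each genotype had 1 Affymetrix array of RNA pooled over mice, 5 per genotype by the treatment protocol and 4 by the extraction protocol. Every value is therefore a measurement of 1 pool. The spread between mice or hybridizations is unknown, and the comparison has no test.

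Complement is a cascade of plasma and locally made proteins that tags surfaces for uptake, draws in leukocytes and, through its terminal proteins, forms pores in membranes. C1q starts the classical route, the Masp proteases the lectin route, and factor B and properdin the alternative route, while membrane proteins such as Cd55 and Cd59a hold the cascade back on the body's own cells. Coagulation starts when tissue factor meets factor VII and ends in fibrin, which factor XIII cross-links and plasmin dissolves. In the uterus, tissue factor is a known product of decidualizing stroma, and plasminogen activators act in the remodelling of the implantation site.

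The targeted gene Msx1 had a signal of 23.0 in the null array, against 1581 in the control array, and Msx2 had 14.5 in the null array, against 63.7 in the control array. The labels do not say whether these probe sets lie in the deleted parts of the genes. Signals are linear MAS5 intensities, which set the matched probes of a probe set against its mismatch probes. A floor stood in for detection at the median probe set of each array, a signal of 30.1 in the null array and 31.0 in the control array, and a signal under it does not show that a gene was silent. All 12 stromal fibroblast markers were above the floor in both arrays, with summed signals of 62711 in the null array and 60546 in the control array. The 11 measured epithelial markers were above it as well, although epithelial clumps had been discarded. Their summed signals were 8750 in the null array and 15545 in the control array. The gland gene Spink1 alone had 85.2 in the null array, against 4657 in the control array. The median log2 ratio (null minus control) of these epithelial markers was -0.13, and past 2-fold 1 was higher and 3 were lower. The ratio of 3' to 5' signal, which goes up as RNA degrades, was 1.28 in the null array and 0.967 in the control array for Gapdh, and 2.33 in the null array and 1.80 in the control array for Actb. Its part in the results below was not tested.

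Promoter sequences were shown for the members on which the results turn and which the RefSeq promoter table held. F3 and F13a1 had the lowest ratios of the members, Cd55 was lower on each of its 3 probe sets, and Procr, 1.60-fold lower, shared with F3 a match to the AP-1 motif. The choice was made after the values and matches were seen. The windows are those of GRCm38.p6 and run 5′ to 3′ along the gene's strand from 250 bases before the annotated start site to 50 bases from it. They cover chr3:121723287-121723586 on the plus strand for F3, chr13:37049164-37049463 on the minus strand for F13a1 (the second of 2 annotated starts), chr1:130462695-130462994 on the minus strand for Cd55 and chr2:155750967-155751266 on the plus strand for Procr. Capitals mark matches on either strand to the letters of AP-1 (TGANTCA), CRE (TGACGTCA), EGR (GCGNGGGCG), PU.1 (GAGGAAGT) or the MSX homeobox core (TAATTG), and no matches overlap.
F3: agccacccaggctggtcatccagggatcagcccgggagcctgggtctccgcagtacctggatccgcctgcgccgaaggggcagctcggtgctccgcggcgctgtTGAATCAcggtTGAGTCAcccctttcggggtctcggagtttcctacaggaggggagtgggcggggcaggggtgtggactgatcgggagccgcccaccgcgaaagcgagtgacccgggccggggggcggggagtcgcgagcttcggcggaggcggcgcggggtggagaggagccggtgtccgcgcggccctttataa
F13a1: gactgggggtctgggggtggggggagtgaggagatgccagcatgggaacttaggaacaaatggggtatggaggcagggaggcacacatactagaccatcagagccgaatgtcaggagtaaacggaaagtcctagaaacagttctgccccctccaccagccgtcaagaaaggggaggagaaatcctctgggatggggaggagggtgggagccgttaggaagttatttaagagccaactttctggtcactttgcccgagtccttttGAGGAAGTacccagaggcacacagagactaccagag
Cd55: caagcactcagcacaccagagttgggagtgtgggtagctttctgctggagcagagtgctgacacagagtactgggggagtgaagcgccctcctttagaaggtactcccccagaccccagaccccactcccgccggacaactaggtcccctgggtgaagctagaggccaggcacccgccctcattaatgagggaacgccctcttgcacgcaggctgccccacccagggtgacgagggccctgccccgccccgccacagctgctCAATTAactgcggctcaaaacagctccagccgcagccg
Procr: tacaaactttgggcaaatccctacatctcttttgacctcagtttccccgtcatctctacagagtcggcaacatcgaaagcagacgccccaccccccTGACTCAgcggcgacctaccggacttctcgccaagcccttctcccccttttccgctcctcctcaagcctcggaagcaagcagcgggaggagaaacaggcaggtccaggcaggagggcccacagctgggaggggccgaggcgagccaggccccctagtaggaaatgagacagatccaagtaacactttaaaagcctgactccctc

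The F3 window held 2 AP-1 matches, which began 146 and 135 bases before the start site. Paired AP-1 sites are a known feature of the human tissue factor promoter. The Procr window held 1 AP-1 match, 154 bases before the start. The F13a1 window shown held a PU.1 match 15 bases from the start, and that of its other annotated start held no match. Cd55 held the MSX core on the other strand 13 bases from its start. AP-1 letters were in 7.81% of the 32851 windows in the table, PU.1 letters in 3.20%, the MSX core in 8%, CRE in 1.79% and EGR in 5.55%. Of 34 windows of the 30 members in the table, 8 held AP-1 letters, those of F2, F2r, F3, Fgb, C3ar1, Plaur, Procr and 1 start of Tfpi2, and Cd55 alone held the MSX core. PU.1 letters were in 2 of the 34, those of C1qc and F13a1, EGR letters in 3, those of Tfpi2, Plaur and Pros1, and CRE letters in 0. A match is a description of letters and does not show that a factor binds there.

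Of the 43 members, 25 were above the floor, all of them in both arrays, 14 were under it in both arrays and 4 had no probe set of their own. Past 2-fold, 0 of these 25 were higher and 0 were lower in the null array, while over the 11833 genes that could be measured 1.59% passed 2-fold as higher and 1.8% as lower. At 1.5-fold, a threshold chosen after seeing that 0 members passed 2-fold, 1 member was higher and 10 were lower, against 6.79% of all genes higher and 6.92% lower. A log2 ratio (null minus control) under 0 was found for 18 of the 25, against 47.7% of all genes. The median log2 ratio of the complement members above the floor was -0.18 and that of the clotting members -0.47, where the median over all genes was 0.02.

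**Figure D1:**
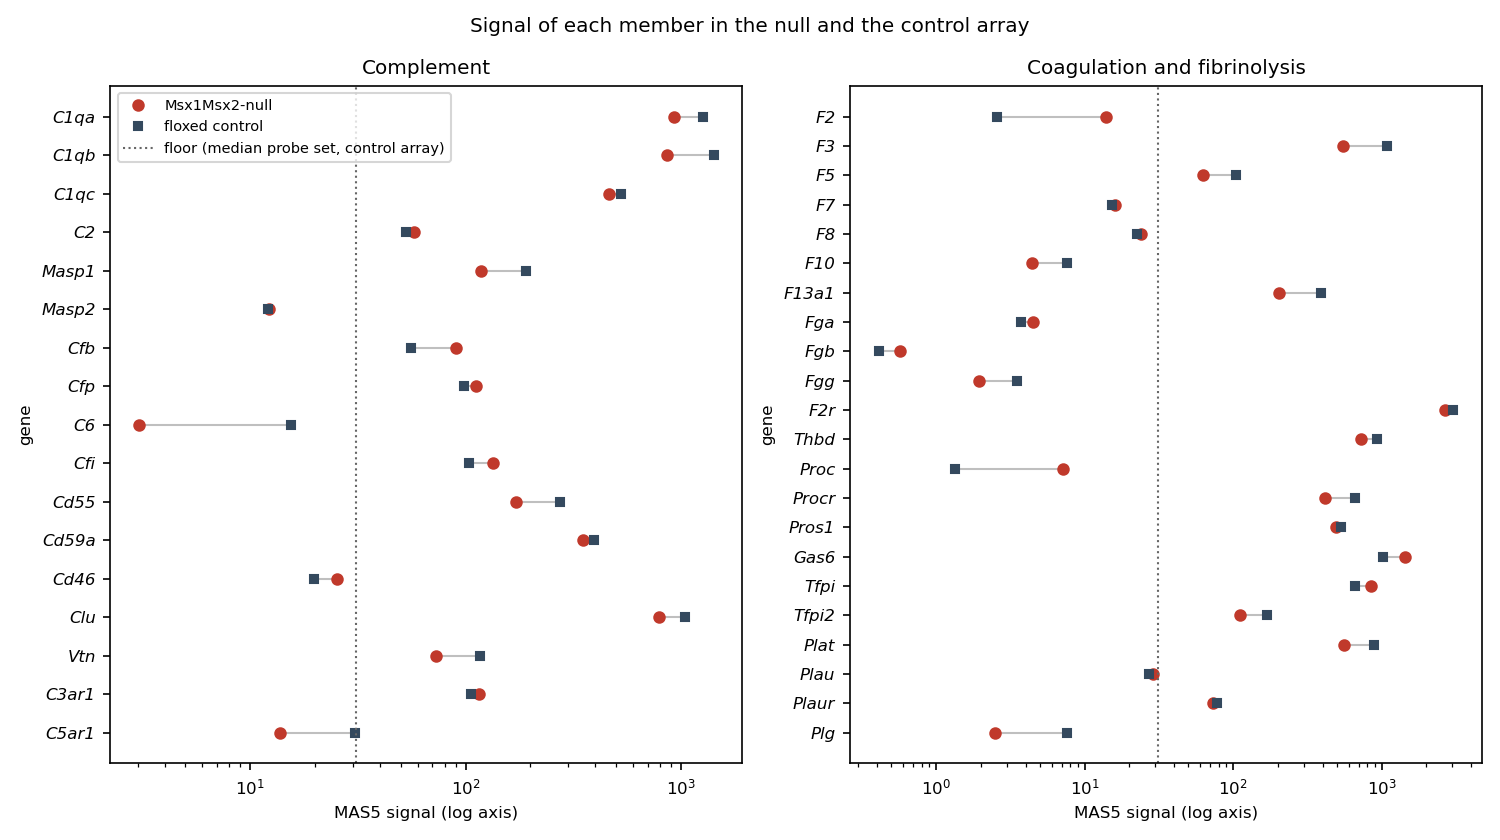
MAS5 signal (log axis) of the 39 members in the Msx1Msx2-null array (circles) and the floxed control array (squares), joined by a line, with complement left and coagulation and fibrinolysis right. The dotted line is the floor of 31.0 in the control array. F3 and F13a1 lay farthest apart among clotting genes right of the line, and the 14 genes left of it had signals with no meaningful order.

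The scale of noise within an array pair was taken from genes with several probe sets. Over 4690 genes, the SD of 1 probe set's log2 ratio, from the difference between its gene's 2 brightest ones, was 0.27. It covers probes and isoforms but not mice, pools or hybridizations. Of 12 members with several probe sets that passed the floor in each array, 8 were lower on every probe set, 1 was higher on every probe set and 3 were mixed. Over all 4690 genes of that kind, 28.3% were lower on every probe set. The other 13 members had 1 such probe set, so no second reading was available for F3, F13a1, Procr or Cfb.

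The C1q chains, which assemble into the recognition molecule of the classical pathway, were lower in the null array. C1qb had a signal of 857 in the null array, against 1416 in the control array, 1.65-fold lower, with log2 ratios of -0.72, -0.51 and -0.37 on its 3 probe sets. C1qa had 926 in the null array, against 1264 in the control array, a log2 ratio of -0.45. C1qc had 461 in the null array, against 524 in the control array. Its log2 ratio of -0.18 was smaller in size than the probe noise of 0.27. The ratios of the chains thus ran from -0.72 to -0.18, all of the same sign. C1qa, C1qc and C1qb are adjacent genes in the RefSeq annotation of GRCm38.p6.

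C1q is made by tissue macrophages, and macrophage markers were lower in the same array. Of 14 markers, 13 had a probe set and 12 were above the floor, of which 11 were lower, 2 of them past 2-fold, with a median log2 ratio of -0.43. Their summed signal was 5787 in the null array and 7832 in the control array, and Cd163 was under the floor in both. The median of the 3 C1q chains was -0.45, and the macrophage markers ran from -1.08 to 0.06. In pooled bulk RNA, fewer macrophages, less C1q RNA per macrophage and a difference between pools or hybridizations cannot be told apart. The same holds for every cell type below.

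The lectin pathway proteases and C2 were less uniform than the C1q chains. Masp1, a protease of the lectin pathway, had 118 in the null array, against 190 in the control array, 1.61-fold lower. The other of its probe sets that passed the floor in each array gave a log2 ratio of -0.18, so the size of the difference was not shared between them. Both are _s_at probe sets. An _x_at probe set passed the floor in the control array alone, at 18.6 in the null array and 42.2 in the control array. Its remaining probe sets were under the floor in both arrays. C2, a part of the C3 convertase, had 57.8 in the null array, against 52.7 in the control array, a log2 ratio of 0.13, but -0.35 on its second probe set. Masp2 was under the floor, at 12.2 in the null array and 12.1 in the control array.

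The measured alternative pathway genes, Cfb and Cfp, were higher in the null array, Cfp by less than the probe noise of 0.27. Cfb, factor B, had 90.6 in the null array, against 55.5 in the control array, 1.63-fold higher, and was the 1 member past 1.5-fold in that direction. With the floor at the 65th percentile its log2 ratio was 0.15, under 1.5-fold. It is an inducible gene of epithelia and macrophages, and C2, its neighbour in the genome and relative in sequence, differed by 0.13 as given above. Cfp, properdin, which stabilizes the alternative convertase, had 111 in the null array, against 98.1 in the control array, with log2 ratios of 0.18 and 0.25 on its 2 probe sets. Of the terminal proteins, C6 was under the floor, with 3.05 in the null array and 15.5 in the control array.

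Regulators that restrain complement were mostly lower. Cd55, the decay-accelerating factor that takes apart C3 convertases on cell surfaces, had 171 in the null array, against 273 in the control array. Its 3 probe sets gave log2 ratios of -0.68, -0.98 and -0.83, each past 1.5-fold lower. Cd59a, which blocks the membrane pore, had 350 in the null array, against 394 in the control array. Its log2 ratios were -0.17, smaller in size than the probe noise of 0.27, and -0.43.

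Clu, clusterin, a secreted chaperone and inhibitor of the terminal complex, had 793 in the null array, against 1043 in the control array. Its 4 probe sets ran from -0.51 to -0.20 on the log2 scale, all lower. Vtn, vitronectin, an adhesive protein that also binds the terminal complex, had 73.1 in the null array, against 117 in the control array, 1.60-fold lower, and its other probe set was under the floor. Cfi, the protease that inactivates C3b and C4b, went the other way, with 134 in the null array, against 104 in the control array, a log2 ratio of 0.36. Cd46, which in mice is known mainly from the sperm acrosome, was under the floor at 25.2 in the null array and 19.7 in the control array.

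The receptors for the anaphylatoxins showed no common direction. C3ar1, the C3a receptor of myeloid cells, had 116 in the null array, against 106 in the control array, a log2 ratio of 0.13, while its other 2 probe sets gave -0.19 and -0.31. C5ar1, the C5a receptor, was under the floor, with 13.8 in the null array and 30.6 in the control array.

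**Figure D2:**
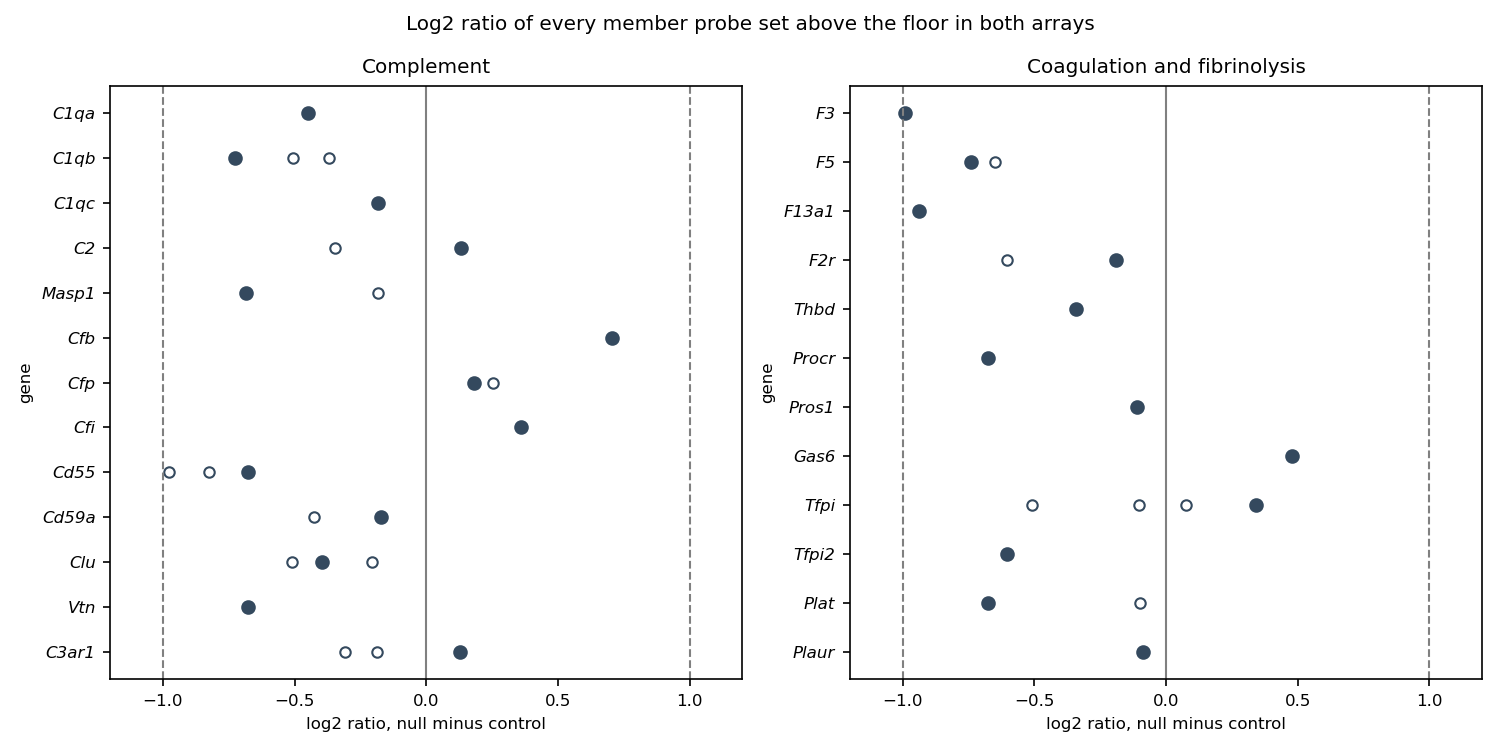
Log2 ratio (null minus control) of each member probe set that passed the floor on each array, complement left, coagulation and fibrinolysis right. Filled circles are the probe sets that represent a gene, open circles its others, and dashed lines mark 2-fold. Cd55 and Clu lay left of 0 on all their probe sets, Tfpi, C2 and C3ar1 on both sides.

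Among clotting factors, tissue factor had the lowest ratio of all members. F3, the membrane protein that starts coagulation, had a signal of 546 in the null array, against 1084 in the control array, a log2 ratio of -0.99 and 1.99-fold lower, just inside the 2-fold limit. F13a1, the A subunit of the fibrin cross-linking enzyme, had 203 in the null array, against 389 in the control array, 1.91-fold lower. F5, the cofactor that speeds thrombin formation, had 63.0 in the null array, against 105 in the control array, with log2 ratios of -0.74 and -0.65 on its 2 probe sets. With the floor at the 65th percentile the ratio of F5 was -0.38. All 3 measured factors were lower on each probe set above the floor, whereas the other 7 factors and fibrinogen chains could not be measured.

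Those 7 genes, F2, F7, F8, F10, Fga, Fgb and Fgg, encode proteins that, apart from F8, are made chiefly by the liver. Their signals lay between 0.574 and 23.8 in the null array and between 0.411 and 22.6 in the control array. Neither array had a signal past the floor for 7 of 8 hepatocyte markers, Alb included, with 3.56 in the null array and 3.40 in the control array. The measured ratio of prothrombin, F2, was 2.45 on the log2 scale from signals of 14.02 in the null array and 2.56 in the control array, and was not read as a difference.

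F3 is an early response gene of injured or stimulated cells, and F13a1 marks tissue macrophages and megakaryocytes. Of 12 immediate early genes, all were above the floor, and all 12 were lower in the null array, 3 past 2-fold, with a median log2 ratio of -0.60 and summed signals of 28355 in the null array and 38637 in the control array. Of 7 measured platelet and megakaryocyte markers, 5 were under the floor, Ppbp and Gp9 among them. Pf4 had 167 in the null array and 185 in the control array, a log2 ratio of -0.15, and Itga2b had 107 in the null array and 96.8 in the control array, a log2 ratio of 0.15. The macrophage markers are given above with C1q. The part of any of these lists in the F3 or F13a1 values was not tested.

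The thrombin receptor F2r had 2661 in the null array, against 3038 in the control array. Its log2 ratio of -0.19 was smaller in size than the probe noise of 0.27. Its second probe set gave -0.60, a larger difference in the same direction. Thbd, thrombomodulin, which turns thrombin toward protein C, had 732 in the null array, against 927 in the control array, a log2 ratio of -0.34. Procr, the endothelial protein C receptor, had 414 in the null array, against 660 in the control array, 1.60-fold lower. Proc, the gene of protein C itself, was under the floor, at 7.18 in the null array and 1.33 in the control array.

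Protein S and its relative Gas6 were close to the control or higher. Pros1, protein S, a cofactor of activated protein C and a ligand of the Tyro3, Axl and Mertk receptors, had 495 in the null array, against 535 in the control array, a log2 ratio of -0.11. Gas6, the other ligand of these receptors, had 1429 in the null array, against 1026 in the control array, 1.39-fold higher. Its second probe set was above the floor in the control array alone, at 23.9 in the null array and 32.6 in the control array, and so had the opposite sign at the edge of what could be measured.

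Of the tissue factor inhibitor genes, Tfpi was mixed over its probe sets and Tfpi2, with 1 probe set, was lower. Tfpi, the Kunitz inhibitor of the tissue factor and factor VII complex, had 844 in the null array, against 666 in the control array, a log2 ratio of 0.34. Its other 3 probe sets gave -0.10, 0.08 and -0.51, so that no direction could be given for the gene. Tfpi2, a matrix-bound relative with activity against plasmin and other proteases, had 111 in the null array, against 169 in the control array, 1.52-fold lower.

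For fibrinolysis, Plat, the tissue plasminogen activator, had 560 in the null array, against 895 in the control array, 1.60-fold lower, while its second probe set gave a log2 ratio of -0.10 at signals of 43.4 in the null array and 46.4 in the control array. Plaur, the urokinase receptor, had 73.4 in the null array, against 78.0 in the control array, a log2 ratio of -0.09. Plau, urokinase, was just under the floor, with 28.7 in the null array and 27.0 in the control array, and Plg, plasminogen, a liver product, had 2.48 in the null array and 7.63 in the control array. The lower value of the group therefore rested on 1 probe set of Plat.

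Thbd, Procr, Plat and Tfpi are known products of blood vessel endothelium. All 12 endothelial markers were above the floor and lower in the null array, with 0 past 2-fold and a median log2 ratio of -0.61, and their summed signal was 3748 in the null array and 5627 in the control array. Vwf, the carrier of factor VIII made by endothelium, had 102 in the null array, against 156 in the control array, a log2 ratio of -0.62. On the probe sets that stood for the genes, Procr and Plat had -0.67 each, Thbd -0.34 and Tfpi 0.34. The markers ran from -0.89 to -0.12, a range that held all of these but Tfpi. The range also held members not named here as endothelial products, such as C1qb at -0.72, Masp1 at -0.68 and Clu at -0.40. A place inside it therefore does not set these genes apart. The placing depended on the probe set. The second probe set of Plat, at -0.10, lay outside the range, and another of Tfpi, at -0.51, lay inside it. The part of endothelial cells in these values was not tested.

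**Figure D3:**
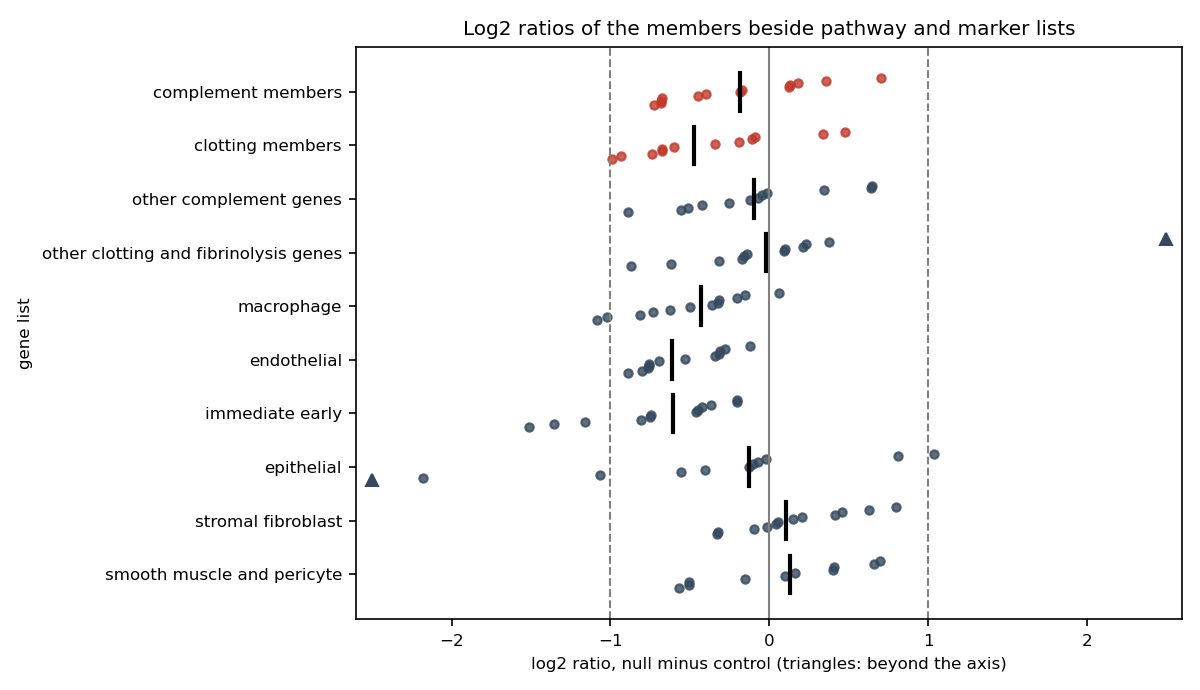
Log2 ratios (null minus control) of genes above the floor, 1 point per gene, for the members (red), the other pathway genes and some of the marker lists. The lists drawn were macrophage, endothelial, immediate early, epithelial, stromal fibroblast, and smooth muscle and pericyte. Bars mark medians, dashed lines 2-fold, and triangles A2m and Spink1, beyond the axis at 3.30 and -5.77. The clotting members, at a median of -0.47, lay near the macrophage, endothelial and immediate early lists, at -0.43, -0.61 and -0.60. The stromal fibroblast list was at 0.10. Of the lists not drawn, neutrophil was at -0.54, and natural killer and T cell at 0.62.

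Further genes of both systems were taken from lists that hold none of the members. Of 32 other complement genes, 26 had a probe set and 12 were above the floor, 3 higher and 9 lower, 0 past 2-fold, with a median log2 ratio of -0.10. Serping1, the inhibitor of C1r, C1s and the Masp proteases, had 1992 in the null array, against 2934 in the control array, a log2 ratio of -0.56. Of the proteases it blocks, C1ra had -0.01 and C1s1 -0.25, and Masp1 had -0.68 as given above. Itgb2, the beta chain of the complement receptors of leukocytes, had 309 in the null array, against 197 in the control array, a log2 ratio of 0.64. C9, the pore-forming protein, was under the floor in the null array, at least 1.85-fold lower, and Susd4, a complement regulator, was under it in the control array, at least 1.57-fold higher.

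Of 31 other clotting and fibrinolysis genes, 28 had a probe set and 12 were above the floor, 6 higher and 6 lower, with a median log2 ratio of -0.02. The 1 gene past 2-fold was A2m, a broad protease inhibitor that also traps plasmin and thrombin, with 1328 in the null array, against 135 in the control array, 9.87-fold higher on its only probe set. Ggcx, the carboxylase that activates vitamin K-dependent factors, had 45.2 in the null array, against 82.7 in the control array, a log2 ratio of -0.87. Anxa2, a cell surface receptor for plasminogen and its activator, had a log2 ratio of 0.37, and a second probe set gave 1.18 at signals of 152 in the null array and 67.3 in the control array. The receptors of protein S and Gas6 gave -0.32 for Axl, -0.16 for Mertk and a bound of -0.14 for Tyro3.

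**Figure D4:**
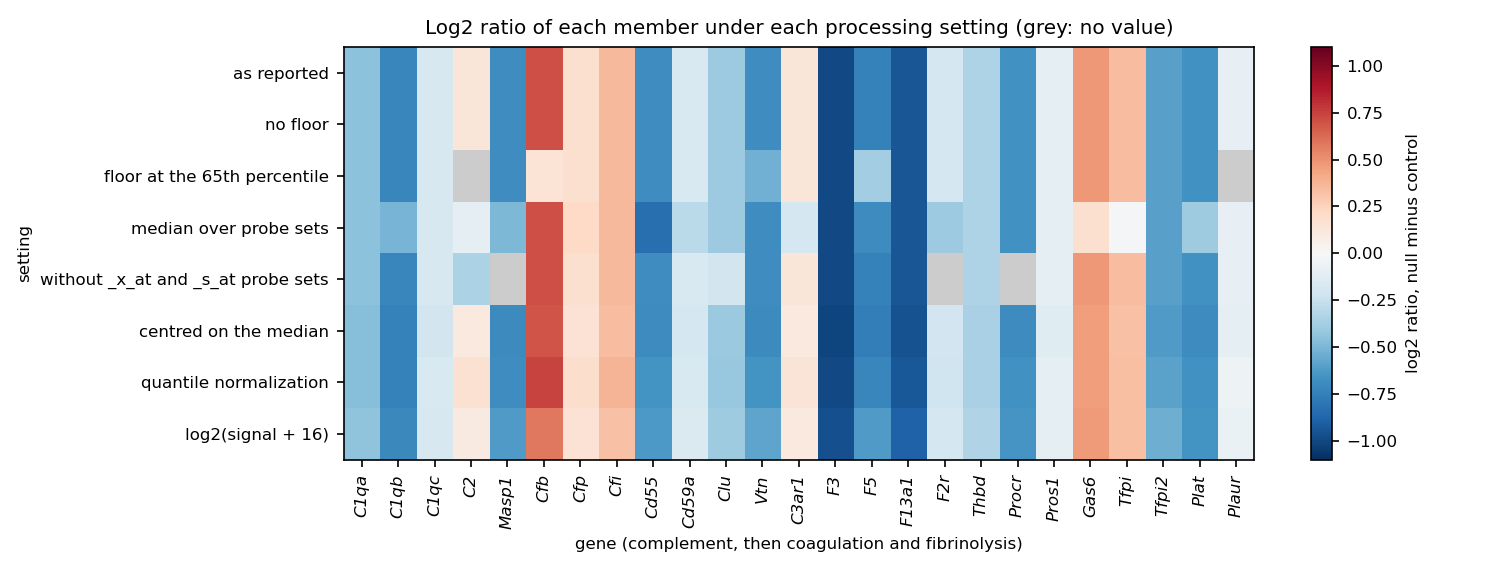
Log2 ratio (null minus control) of the 25 members above the floor, in columns, under the setting as reported and 7 alternatives, in rows. Blue is lower and red higher in the null array, and grey marks no value. F3 and F13a1 had the lowest values in all rows, between -1.01 and -0.89, and Tfpi, C2 and C3ar1 changed colour with the choice of probe sets.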

How the data were processed

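RNA of uterine stromal cells, 100 ng per sample, was hybridized to Affymetrix 3' expression arrays, 1 per genotype, per the labels' protocols. The authors deposited a linear signal intensity for each probe set. The submitters' processing notes name MAS5 and Affymetrix Expression Console 1 and give no settings or detection calls here. The trimmed mean intensity (2% off each end) was 150 in both deposited columns, and no further scaling was applied. MAS5 subtracts mismatch signal, which makes ratios of small signals unsteady.

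Of 45101 probe sets, 64 were controls, and the platform annotation gave 1 gene symbol for 34945 (used), several for 932 and none for 9160. Log2 ratios are null minus control. The probe set whose log2 signal was highest on average stood for a gene. A floor at the 50th percentile of each array stood in for detection. Genes with at least 1 signal above it were used, lower signals were raised to it, and such folds are bounds. Calls were made at 2-fold, by size alone, and the calling was tested on simulated data. That simulation changed only genes well above the floor, with less noise than the probe noise given above. It therefore says nothing on weak genes or on ratios near 2-fold.

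Members, lists, floor and alternatives were chosen with earlier results of these data known. All members are accounted for. Of other pathway genes, those past 2-fold and up to 4 per list with the largest ratios are named, and C1ra, C1s1, Axl, Mertk and Tyro3 were chosen after their values were seen. Alternatives were no floor, a floor at the 65th percentile, the median over probe sets, no _x_at or _s_at probe sets, median centring, quantile normalization and log2(signal + 16). Python 3.11.15, numpy 2.4.6 and pandas 2.3.3 were used.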

Additional observations from a re-analysis of the deposited data

How the results depend on the processing

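With no floor, 0 complement members were at least 2-fold higher and 2 lower (C6 and C5ar1), and 2 clotting members were higher (F2 and Proc) and 1 lower (Plg), all from signals under the floor. The clotting median was then -0.15, over 22 genes instead of 12. All genes past 2-fold numbered 1797 higher and 1772 lower of 18193 with no floor. With a floor at the 65th percentile they numbered 97 higher and 123 lower of 9655, against 188 and 213 of 11833 as reported. The other pathway genes past 2-fold numbered 16 with no floor and 2 with log2(signal + 16), against 1. Centring on the median, a shift of 0.019, put 1 clotting member, F3, past 2-fold lower at -1.01. At 1.5-fold, added after seeing the data, 1 of 13 complement members was higher and 4 were lower. Of 12 clotting members, 0 were higher and 6 lower, against 6.79% of all genes higher and 6.92% lower. Otherwise 0 members passed 2-fold. The complement median ran from -0.30 to -0.17 and the clotting median from -0.49 to -0.15 over the 7 alternatives and the value as reported. Of 170 member ratios under the alternatives, 163 moved by less than the probe noise of 0.27 and 4 changed sign: with the median over probe sets, C2 was -0.11, C3ar1 -0.19 and Tfpi -0.01, and C2 was -0.35 without _x_at and _s_at probe sets. Further ratios that moved by more were 0.15 for Cfb and -0.38 for F5 with the higher floor, and 0.18 for Gas6 and -0.39 for Plat with the median over probe sets. Masp1, F2r and Procr had no ratio without _x_at and _s_at probe sets, nor did C2 and Plaur with the floor at the 65th percentile. The 170 leave these losses out. The count of 163 was in part fixed in advance. Ratios of members above the floor in both arrays cannot change with no floor, and centring moved each by only 0.019. No paired analysis was possible because each genotype had 1 array. The number of arrays limits the precision of every value, and signals under the floor carry no order.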

Other observations

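Markers of other leukocytes went in different directions. Of 10 natural killer and T cell markers, 6 were above the floor, 5 of them higher, with a median log2 ratio of 0.62. The granzyme genes Gzma and Gzmb, which encode proteases of cytotoxic granules, had 1063 and 1371 in the null array, against 573 and 752 in the control array. The T cell gene Cd3g had 87.8 in the null array, against 95.2 in the control array, a log2 ratio of -0.12, while Cd4, Cd8a and Cd3e did not pass the floor. Of 7 neutrophil markers, 3 were above the floor, all lower, with a median of -0.54, and Elane, Mpo and Camp were under it.

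Of 10 smooth muscle and pericyte markers, 6 were higher and 4 lower, with a median of 0.13. Among contractile and muscle genes, Cnn1, Actg2, Acta2, Tagln and Myh11 had log2 ratios of 0.70, 0.66, 0.41, 0.40 and 0.16, and Des had -0.15. Among pericyte genes, Abcc9, Rgs5 and Kcnj8 had -0.57, -0.51 and -0.50, and Cspg4 had 0.10. Of 5 mesothelial markers, 3 were under the floor, and Wt1, which stromal cells also express, had 491 in the null array, against 292 in the control array. Of 11 measured epithelial markers, 2 were higher and 9 lower, with a median of -0.13. Past 2-fold, 3 were lower (Spink1, Foxa2 at -2.18 and Krt18 at -1.06) and 1 was higher (Krt19 at 1.04). The gap between their summed signals given above was led by Spink1, with 85.2 in the null array, against 4657 in the control array. The 1 hepatocyte marker above the floor, Apoa2, had 40.2 in the null array and 43.5 in the control array.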
